A study of Mus musculus with 32 samples.

Results

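The zinc finger protein genes described here are the probes whose gene symbol in the deposited table begins with Zfp followed by a digit. There were 352 such probes for 255 symbols, of 25697 probes and 18138 symbols on the Illumina MouseRef-8 v2.0 BeadChip, an array on which every transcript probe is carried by many beads. The table came from frontal cortex (FCtx) of 32 female C57BL/6J x FVB/NJ F1 mice, with 1 array for each mouse. The 20 ethanol-treated mice chose between water and 20% ethanol in limited sessions in the dark over 20 days, a voluntary binge-like model of drinking, and the 12 control mice received no ethanol. The sources differ on the cross, since a single direction is given in the labels and both directions in the Methods, and the labels give no age for single mice. Chips 1 and 2 held 8 ethanol-treated mice each, chip 4 held 8 controls, and chip 3 held 4 ethanol-treated mice at odd positions and 4 controls at even positions. Treatment and position therefore cannot be told apart on chip 3, and treatment and chip cannot be told apart on chips 1, 2 and 4. The replicates are single mice, and in this bulk tissue fewer cells of a type and less RNA per cell cannot be told apart.

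Most Zfp genes encode transcription factors built from tandem C2H2 fingers, small loops folded around a zinc ion that read DNA bases. Many carry a KRAB domain, which recruits TRIM28 and the histone methyltransferase SETDB1 and silences chromatin, often at transposable elements, and their genes lie in large clusters, above all on chromosome 7. Others carry BTB or SCAN domains in place of KRAB, and the Zfp36 family has CCCH fingers that bind AU-rich elements of mRNA and bring about its decay. In cortex the best known member is Zfp238, now named Zbtb18 and also known as RP58, a repressor needed for the development of cortical neurons. The gene function terms of the array table assigned zinc ion binding to 300 of the 352 probes (85.2%, against 9.37% of all probes), DNA binding to 138 (39.2%, against 8.43%) and mRNA binding to 4.

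The sequences of fingers are joined by a conserved linker that begins with the amino acids TGEKP or TGERP, and a probe lying over that linker can pair with transcripts of many family members. All probes were searched for a reading frame coding a histidine followed by this linker, with serine also allowed in place of its threonine. The search found 7, of which 3 belonged to Zfp symbols. They are shown because they lie over this conserved stretch, with the linker codons in capitals, 5′ to 3′. How specific each is to its gene was not measured.
Zfp369: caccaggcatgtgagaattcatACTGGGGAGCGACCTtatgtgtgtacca
Zfp59: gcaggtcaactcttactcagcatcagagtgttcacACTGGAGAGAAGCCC
Zfp72: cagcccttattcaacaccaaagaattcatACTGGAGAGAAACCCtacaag
All 3 were detected on 0 of the 32 arrays, so they count among the members but were not tested. The search found no tested probe of a Zfp gene. A run of at least 25 bases shared with a probe of another symbol was found for 5 Zfp probes, of which 4 were tested. Among these, Zfp313 and Zfp339 are older names of the genes of their partner probes, Rnf114 and Ovol2.

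The probes on which the comparisons turned are identified by their first 30 bases of 50, all in lower case because no letter is marked.
Zfp292, probe ILMN_1243910: tcagtataggtaaagccacgggcagagggc
Zfp292, probe ILMN_1249547: ggctgctgtggctggtagcagtcatgtgtg
Zfp131, probe ILMN_1258545: gtctatccagtggctacaaatgttgtcccc
Zfp148, probe ILMN_2456243: ccacaggtgagggacacttgcaaagtgcca
Zfp36l1, probe ILMN_2780424: attccatgtgcccatctcaagacattccgc
Zfp36l1, probe ILMN_1247853: ccaggttggagttttccaatgttgacataa
The probes of Zfp36l1 abut, at bases 2741 to 2790 and 2791 to 2840 of the transcript record, and those of Zfp292 lie close together, at 7864 to 7913 and 8100 to 8149. Each pair reads neighbouring stretches of a transcript from the same RNA sample and is not independent evidence.

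For the position of the genes, 338 probes (246 symbols) were matched by Entrez ID to RefSeq (GRCm38.p6), 14 were unmatched, and 19 symbols have since been renamed, among them Zfp238 to Zbtb18 and Zfp187 to Zscan26. Chromosome 7 carried 84 of the matched Zfp probes (24.9%, against 8.41% of all matched probes), chromosome 13 carried 30 and chromosome 17 carried 28. Genes that started no more than 200 kb after the end of the Zfp gene before them, in groups of at least 3, formed 16 clusters with 90 symbols. The largest cluster had 12 genes at chr13:67121659-67827000, and another of 11 genes lay at chr7:24081877-24587840.

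A probe counted as tested when its detection p was below 0.01 on at least 24 of the 32 arrays, the filter applied to all probes. By this rule 142 Zfp probes of 117 symbols were tested, 40.3% of the Zfp probes against 39.6% of all probes (10187 of 25697). The remaining 138 symbols had no tested probe. Across the members, 103 probes were detected on all 32 arrays, 39 on 24 to 31, 85 on 1 to 23 and 125 on none. Just outside the filter, at 23 arrays, were Zfp1, Zfp11 and Zfp566 with mean raw signals of 200.8, 202.2 and 204.5, and just inside, at 24 arrays, were Zfp296 at 209.5 and Zfp93 at 202.9. Members on either side of the filter therefore had about the same signal.

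The share detected depended on the rule more than on the family. With detection on every array the Zfp share was 29.3% against 33.5% of all probes, and with detection on any array it was 64.5% against 56.5%. Zfp probes were thus more often near the limit of detection than probes at large. In clusters 39 of 121 Zfp probes were tested (32.2%), against 99 of 217 outside clusters (45.6%), and the median raw signals were 176 and 194.

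Array by array, the number of Zfp probes detected was 150 to 175 on chip 1, 148 to 168 on chip 2, and 151 to 166 in the 4 ethanol-treated mice of chip 3. In controls it was 166 to 177 on chip 3 and 120 to 170 on chip 4. The lowest value belonged to control mouse 66, whose array also had the fewest detected probes of all kinds (9480, against up to 11544). On chip 3 the controls had more Zfp probes detected than the ethanol-treated mice, with a shared value of 166. Detection over all probes went the same way on chip 3, at 10739 to 11240 in ethanol-treated mice and 11200 to 11413 in controls. On the other chips the ranges of Zfp probes detected in ethanol-treated and control mice overlapped widely. The median raw Zfp signal was 148.6 to 176.2 on chip 4 and 179.9 to 214.4 on chips 1 and 2, so these ranges did not overlap, and on chip 3 it was 170.4 to 200.5 in ethanol-treated mice and 186.6 to 200.3 in controls. Signal over all probes differed in the same way (146.2 to 167.7 on chip 4, 172.4 to 203.3 on chips 1 and 2), and levels below are after normalization between arrays.

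**Figure D1:**
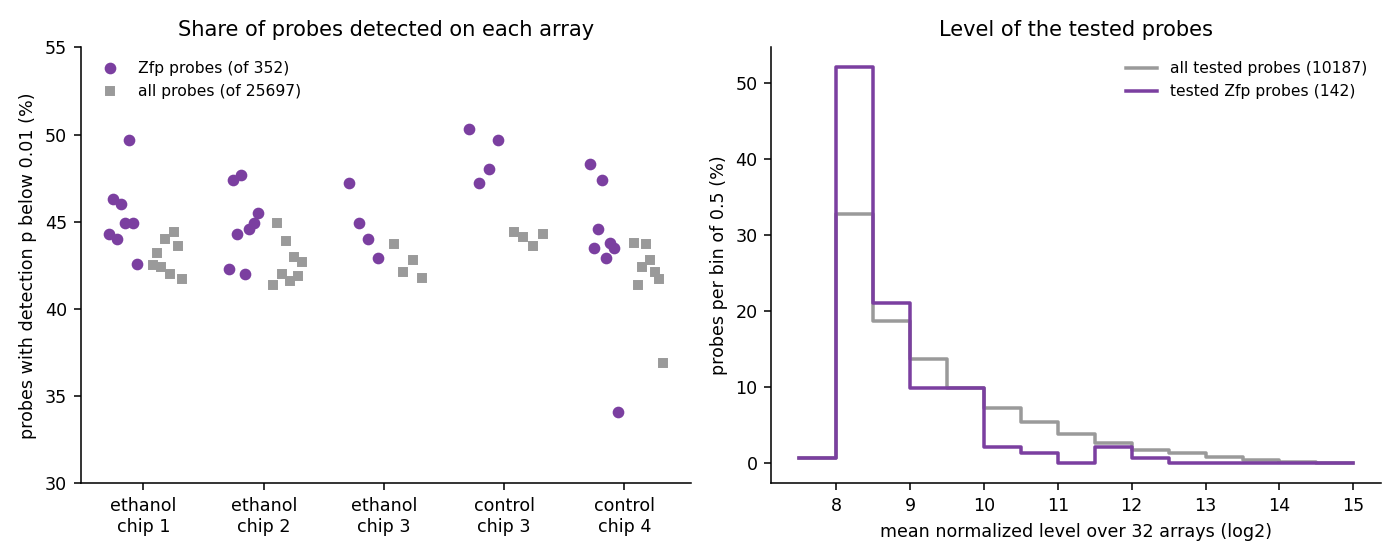
Left, percentage of the 352 Zfp probes (purple circles) and of all 25697 probes (grey squares) with a detection p below 0.01, 1 point per array, by group and chip. Right, distribution of the mean normalized level (log2) of the 142 tested Zfp probes and of all 10187 tested probes, as the percentage of probes in bins of 0.5. The Zfp points lie between 34.1% and 50.3%, and the Zfp levels lie further to the left than those of all probes.

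Tested Zfp probes were dim. Their mean raw signal ran from 203 to 5105 with a median of 306, and the median of the untested members was 164. On the variance-stabilized, quantile-normalized log2 scale, the median level was 8.42 for tested Zfp probes and 8.93 for all tested probes. When all tested probes were divided into 4 equal parts by level, the dimmest held 59 of the 142 Zfp probes (41.5%) and the brightest held 10 (7.04%). The median within-group SD was 0.093 for Zfp probes and 0.111 for all tested probes, on the same log2 scale. The variance-stabilizing transform shrinks the differences of dim probes, and for Zfp probes the change was a median of 0.807 of that on the plain log2 scale, against 0.884 for all probes.

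The 10 brightest probes, by mean raw signal, were those of Zfp365 (5105), Zfp238 (3834, 3634 and 1123), Zfp523 (3567), Zfp36l1 (1730), Zfp46 (1491), Zfp330 (1071), Zfp187 (1057) and Zfp131 (1016). Zfp365 encodes a protein of neurite growth and the centrosome, Zfp523 is the mouse counterpart of ZNF76, and Zfp330 encodes a nucleolar autoantigen. Signal depends on how well each probe hybridizes, so this list is no order of abundance. None of these 10 probes other than that of Zfp131 passed the 1% threshold over all arrays.

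The study asked about networks of miRNAs and mRNAs in FCtx after ethanol drinking, and the mRNA arrays compare transcript levels between ethanol-treated mice and controls. Over all 32 arrays, 4 of the 142 tested Zfp probes passed an FDR below 1% in limma (Benjamini-Hochberg over all 10187 probes), against a background of 8.29% of all tested probes. All 4 were higher in ethanol-treated mice, where the background for higher calls was 3.59%. They belonged to Zfp292 (both tested probes), Zfp131 and Zfp148. No Zfp probe was called lower, against 4.69% of all tested probes, although 17 were lower and 20 higher at an unadjusted p below 0.05.

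Zfp292, on chr4:34803110-34882983, encodes a very large zinc finger protein known as a growth hormone-dependent transcription factor, and its human counterpart is mutated in a neurodevelopmental disorder. The normalized level of probe ILMN_1243910 had a lowest, median and highest value of 8.38, 8.64 and 8.93 in the 20 ethanol-treated mice and of 8.16, 8.39 and 8.66 in the 12 controls. The groups overlapped, and 18 of 20 ethanol-treated mice were above the control median. The change was 0.23 (SE 0.055, limma adjusted p = 0.00334), 1.18-fold on the transformed scale. On chip 3 the 4 ethanol-treated mice (46, 47, 49 and 50) were at 8.93, 8.68, 8.53 and 8.62, and the 4 controls (52, 54, 55 and 56) at 8.47, 8.34, 8.42 and 8.16. These did not overlap, and the change there was 0.34 (limma adjusted p = 0.0193). Between chips 1, 2 and 4 it was 0.20 (adjusted p = 0.0308).

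The second probe of Zfp292, ILMN_1249547, had values of 8.67, 9.03 and 9.44 in ethanol-treated mice and 8.44, 8.81 and 9.03 in controls. The change was 0.26 (SE 0.066, limma adjusted p = 0.00555), 1.2-fold, with 18 of 20 ethanol-treated mice above the control median. On chip 3 the ethanol-treated mice were at 9.24, 9.15, 9.03 and 9.01, and the controls at 8.94, 9.01, 8.85 and 8.76, so that the lowest ethanol-treated mouse lay just below the highest control. The changes on chip 3 and between the other chips were 0.22 (adjusted p = 0.0536) and 0.29 (adjusted p = 0.0145).

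Zfp131, on chr13:119765186-119791477, encodes a BTB zinc finger transcriptional regulator. Its probe had values of 9.77, 10.04 and 10.33 in ethanol-treated mice and 9.54, 9.79 and 10.16 in controls, with 18 of 20 ethanol-treated mice above the control median. The change was 0.23 (SE 0.061, limma adjusted p = 0.00808), 1.17-fold, and it was 0.28 on chip 3 (adjusted p = 0.0432) and 0.23 between the other chips (adjusted p = 0.0187). On chip 3 ethanol-treated mice were at 10.33, 10.30, 10.05 and 9.98, and controls at 10.03, 9.93, 9.79 and 9.80, which overlapped. The probe shared a run of at least 25 bases with the probe of LOC100040573, whose change was 0.21 (SE 0.079, limma adjusted p = 0.0532), so the signal of the pair cannot be assigned to Zfp131 alone.

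Zfp148, on chr16:33380775-33503903, encodes a Krüppel-type factor, also known as ZBP-89, that binds GC-rich promoters. Its probe had values of 8.35, 8.59 and 8.95 in ethanol-treated mice and 8.31, 8.41 and 8.63 in controls. The groups overlapped, and 19 of 20 ethanol-treated mice were above the control median. The change was 0.21 (SE 0.056, limma adjusted p = 0.00808), 1.16-fold. On chip 3 ethanol-treated mice were at 8.95, 8.80, 8.52 and 8.54 and controls at 8.39, 8.45, 8.47 and 8.48, without overlap. The change was 0.25 there (adjusted p = 0.0612) and 0.20 between the other chips (adjusted p = 0.0309).

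**Figure D2:**
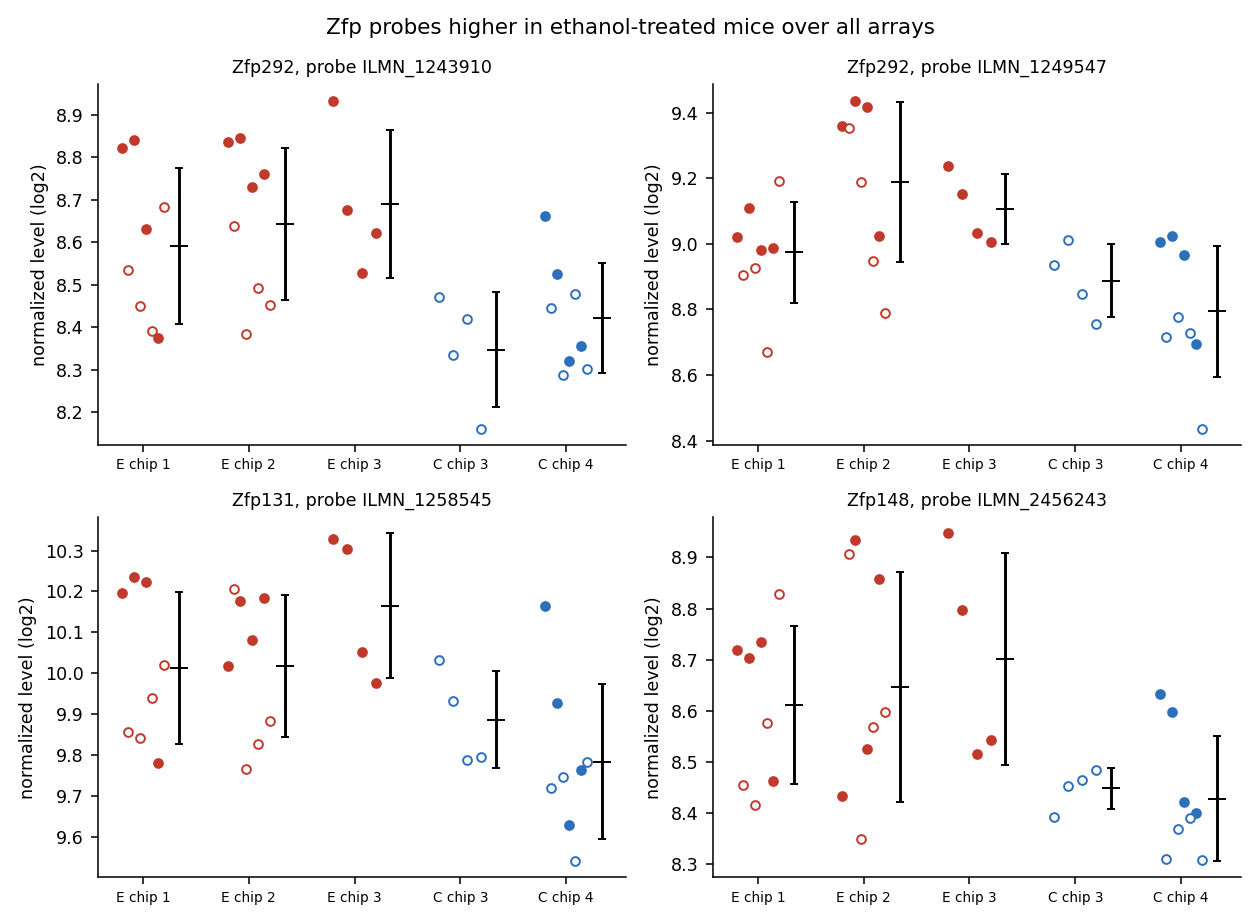
Normalized level (log2) of the 4 probes called over all arrays, 1 point per array, by group (E ethanol, C control) and chip. Filled points are odd positions and open points even positions, and bars give the mean and SD of each set. For all 4 probes the means of the ethanol sets of chip 3 and of chips 1 and 2 together lie above the means of both control sets, while the points overlap.

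The levels of these 4 probes were also higher at odd positions, although none passed 1%. On chips 1, 2 and 4, where treatment did not vary within a chip, the difference of odd minus even positions was 0.18 for Zfp292 probe ILMN_1243910 (limma adjusted p = 0.0236), 0.20 for ILMN_1249547 (adjusted p = 0.0388), 0.19 for Zfp131 (adjusted p = 0.0332) and 0.11 for Zfp148 (adjusted p = 0.228). On chip 3 the ethanol-treated mice held the odd positions. With odd or even position as a covariate the changes over all arrays were 0.19, 0.22, 0.18 and 0.18, and 2 Zfp probes passed the 1% threshold (background 9.7%). These were ILMN_1243910 of Zfp292 (adjusted p = 0.00647) and ILMN_2445848 of Zfp238 (0.24, adjusted p = 0.00503), and the other 3 probes called without the covariate had adjusted p of 0.0124 to 0.0194. With chip as a fixed block and position together, the changes of the 4 probes were 0.16, 0.02, 0.09 and 0.14, and 0 Zfp probes passed 1% (background 0.0196%, 16 Zfp probes at an unadjusted p below 0.05).

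The calls also depended on control mouse 66. Without its array, 1 Zfp probe passed the 1% threshold, ILMN_1243910 of Zfp292 (adjusted p = 0.00766), and the other 3 had changes of 0.20 to 0.23 with adjusted p of 0.0155 to 0.0185. The number over all probes was 576 (5.65%). Single probes of the marker lists differed between the groups, while the ranges of the lists overlapped. The mean level of the astrocyte list, of which 6 of 10 probes were tested, ran from 10.37 to 10.74 in ethanol-treated mice and from 10.29 to 10.70 in controls. In this list Aqp4 was called higher (0.49), Slc1a3 changed by 0.17, and the other 4 probes had changes from -0.11 to 0.05, with a list median of 0.03. The cortical neuron list, of which 6 of 10 probes were tested, ran from 11.85 to 12.17 in ethanol-treated mice and from 11.94 to 12.31 in controls. Of the latter, Nrgn, Slc17a7 and Tbr1 were called lower (-0.18, -0.26 and -0.33), while Syt1 changed by 0.13 and the probes of Camk2a by 0.19 and -0.09. Of the other lists, oligodendrocyte had 1 call among 13 tested probes. The immediate early list had 2 among 5, both lower (Arc at -0.49 and Junb at -0.20). The endothelial, microglia, olfactory bulb, striatum and blood lists had 0 calls. The part of these lists in the changes of Zfp genes was not tested. Gfap was not among the tested probes, whereas the defining cortical markers Slc17a7 and Tbr1 were detected.

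Below the top, the probes with the largest decreases over all arrays did not pass 1%. They were ILMN_1247853 of Zfp36l1 (-0.16, limma adjusted p = 0.0731), Zfp187 (-0.15, adjusted p = 0.0448), Zfp653 (-0.13, adjusted p = 0.0150), Zfp771 (-0.11, adjusted p = 0.0227) and Zfp251 (-0.11, adjusted p = 0.142). Zfp653 encodes a repressor that acts on steroidogenic factor targets, and Zfp187 a SCAN domain protein. At a looser threshold, an FDR under 10% and a size of 1.1-fold or more, 8 Zfp probes were called (background 13.3%), 6 higher (background 6.95%) and 2 lower (background 6.39%). Beside the 4 above these were Zfp281 and Zfp574, higher by 0.14 and 0.16, and Zfp187 and the Zfp36l1 probe, lower.

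Across the whole family the changes were small. The 142 changes ran from -0.16 to 0.26 with a median of 0.01, against -0.003 for all tested probes. Of these, 81 were positive and 61 negative (57% positive, against 48.4% of all tested probes), and 22 exceeded 0.1 in size (15.5%, against 25.5%). By the same 4 parts of level the number of called Zfp probes was 0, 2, 1 and 1 from dim to bright, where the share of all probes called was 3.89%, 7.89%, 10.5% and 10.8%. The dimmest part held 59 of the Zfp probes (41.5%) and had the lowest share of all probes called. The part of level in the number of Zfp calls was not tested.

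Chip 3 held both groups on the same slide, and chips 1, 2 and 4 shared no array with it. On chip 3, 2 of 142 Zfp probes passed 1% (background 3.03%), both higher, and without control mouse 54 there were 0 (28 at an unadjusted p below 0.05). There 79 changes were positive and 63 negative, with a median of 0.013 and a range from -0.22 to 0.54. Between chips 1, 2 and 4, 9 passed 1%, 6 higher and 3 lower (background 11.8%, or 5.9% higher and 5.95% lower), and 83 were positive and 59 negative, with a median of 0.014. At the looser threshold, 21 were called on chip 3 (background 17.1%) and 19 between the other chips (background 21.3%). The sign was the same in both sets of arrays for 80 of the 142 Zfp probes (56.3%), against 51.0% of all tested probes. Of the 2 Zfp probes called on chip 3, 0 had the same sign between the other chips, against 189 of the 309 probes of all kinds called on chip 3. Of the 9 Zfp probes called between the other chips, 2 had the same sign on chip 3, against 618 of 1207 of all kinds.

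**Figure D3:**
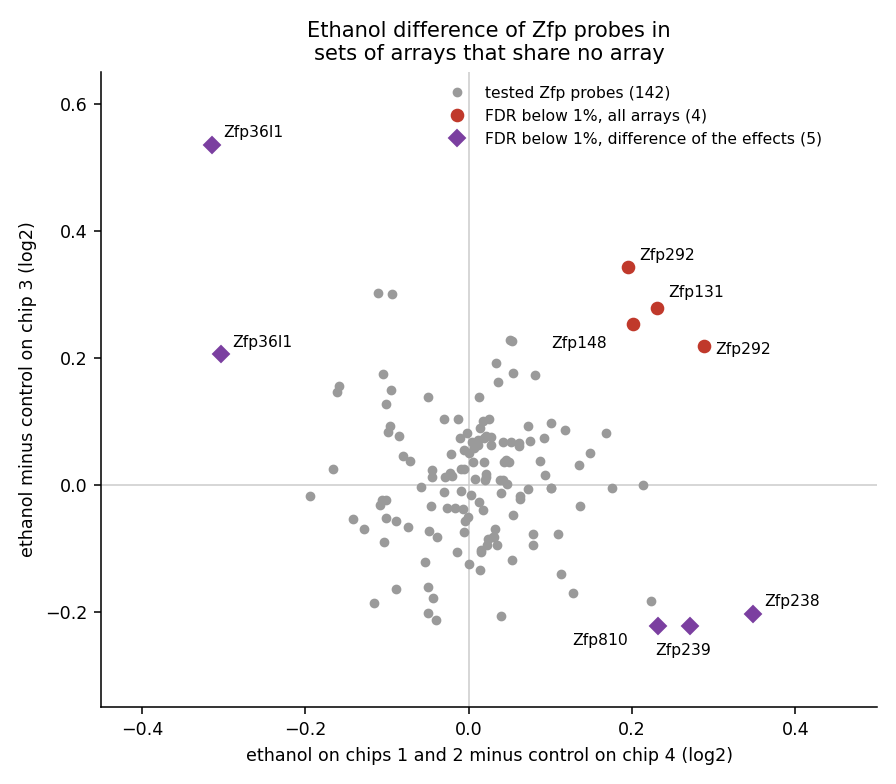
Ethanol difference (log2) of each of the 142 tested Zfp probes on chip 3 (vertical axis) against that between chips 1 and 2 and chip 4 (horizontal axis). Red circles are the 4 probes called over all arrays, in the upper right, and purple diamonds the 5 probes whose effect differed between the sets of arrays, in the upper left and lower right.

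The difference between these effects was tested as an interaction. It passed 1% for 5 Zfp probes (3.52%, near the background of 2.88%), and in all 5 the sign was opposite. The share with opposite signs among all probes passing is not given here, so this is not a trait of Zfp probes. The 5 probes belonged to Zfp36l1 (both tested probes), Zfp238, Zfp239 and Zfp810.

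Zfp36l1, on chr12:80107760-80113013, encodes a CCCH protein of the tristetraprolin family that promotes decay of AU-rich mRNAs. On chip 3 probe ILMN_2780424 was at 10.996, 10.743, 11.112 and 10.747 in the 4 ethanol-treated mice and at 10.23, 10.30, 10.37 and 10.55 in the 4 controls. Every ethanol-treated mouse was above every control there. On chips 1 and 2 it had a lowest, median and highest value of 10.43, 10.60 and 10.96, and on control chip 4 of 10.83, 10.96 and 11.10, so the order of the groups was the opposite. The changes were 0.54 on chip 3 (limma adjusted p = 0.00216) and -0.31 between the other chips (adjusted p = 0.00019), and the difference of 0.85 had an adjusted p of 1.8e-05. Over all arrays they nearly cancelled, at -0.06.

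The controls of chips 3 and 4 differed as well, although those of chip 3 held only even positions and those of chip 4 both odd and even. In Zfp36l1 probe ILMN_2780424 the controls of chip 4 were 0.60 above those of chip 3 (limma adjusted p = 0.000126), and the abutting probe ILMN_1247853 was 0.32 above (adjusted p = 0.0130). The latter changed by 0.21 on chip 3 and by -0.30 between the other chips, a difference of 0.51 (adjusted p = 0.00652). With any single array of chip 3 left out, the difference for ILMN_2780424 stayed past 1% in 8 of 8 cases and its chip 3 change lay between 0.46 and 0.60. For ILMN_1247853 it did so in 2 of 8, and for ILMN_2445848 of Zfp238, described next, also in 2 of 8. The third probe of Zfp36l1 was detected on 1 array and gave no value.

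Zfp238 (Zbtb18), on chr1:177442351-177450764, had 3 tested probes. Probe ILMN_2445848 was at 10.10, 10.05, 10.16 and 10.22 in the ethanol-treated mice of chip 3 and at 10.33, 10.41, 10.21 and 10.39 in its controls. Its values were 9.82, 10.17 and 10.48 on chips 1 and 2 and 9.57, 9.80 and 10.10 on chip 4. The changes were -0.20 and 0.35, with a difference of -0.55 (limma adjusted p = 0.00609). Probe ILMN_3124947 had changes of -0.18 and 0.22 and a difference of -0.41, which missed 1% (adjusted p = 0.0115), and probe ILMN_2459155 had changes of 0.10 and 0.03. In the probes that changed sign, the controls of chip 4 were below those of chip 3, with differences of -0.51 (adjusted p = 0.0022) and -0.35 (adjusted p = 0.006). Probe ILMN_2445848 was also the only Zfp probe past 1% between odd and even positions (-0.22, adjusted p = 0.00926; background 3.76%).

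Zfp239, on chr6:117862024-117872766, encodes a factor also known as Mok2 that binds DNA and RNA. On chip 3 it was at 9.68, 9.76, 9.73 and 9.81 in ethanol-treated mice and at 9.76, 10.16, 9.99 and 9.96 in controls, and its values were 9.63, 9.84 and 10.01 on chips 1 and 2 and 9.38, 9.57 and 9.73 on chip 4. The changes of -0.22 and 0.27 differed by -0.49 (limma adjusted p = 0.00161). Zfp810, on chr9:22276737-22307814, was at 8.12, 8.09, 8.07 and 8.01 in the ethanol-treated mice of chip 3 and at 8.35, 8.27, 8.31 and 8.25 in its controls, without overlap. On chips 1 and 2 it had values of 8.19, 8.27 and 8.41 and on chip 4 of 7.84, 8.08 and 8.25. Its changes of -0.22 and 0.23 differed by -0.45 (adjusted p = 0.000329). For both genes the difference stayed past 1% with each array of chip 3 left out in turn (8 of 8).

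**Figure D4:**
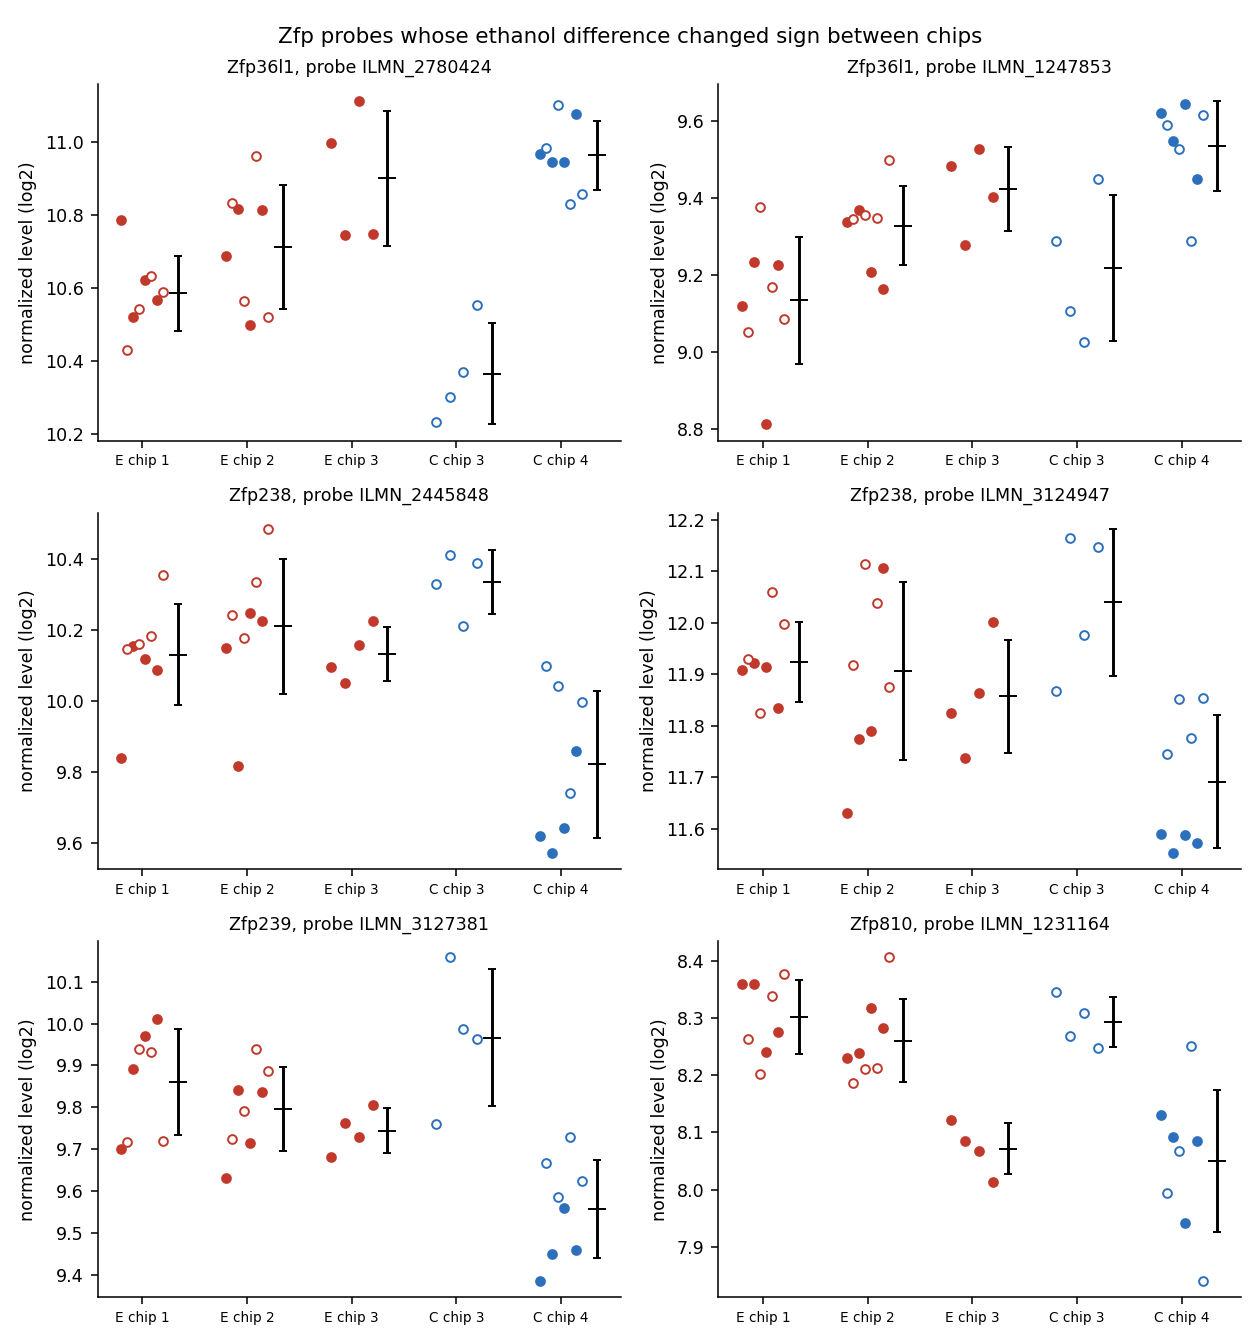
Normalized level (log2) of the 5 probes whose ethanol difference on chip 3 differed from that between chips 1, 2 and 4 at an FDR below 1%, and of a second Zfp238 probe, 1 point per array. E is ethanol, C control, filled points are odd and open points even positions, and bars give mean and SD. In each panel the mean of the controls of chip 3 and that of chip 4 lie on opposite sides of the mean of the ethanol-treated mice of chips 1 and 2.

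Several marker lists differed between the groups of chip 3. The astrocyte list ran from 10.53 to 10.64 in its ethanol-treated mice and from 10.40 to 10.50 in its controls. The endothelial list (4 of 6 probes tested) ran from 9.19 to 9.34 in its ethanol-treated mice and from 9.01 to 9.10 in its controls, the cortical neuron list from 12.03 to 12.07 and from 12.15 to 12.31, and the oligodendrocyte list (13 of 13 probes tested) from 9.91 to 10.11 and from 10.02 to 10.59. The olfactory bulb list (3 of 5 probes tested), a sign of dissection, ran from 8.15 to 8.43 in ethanol-treated mice (mean 8.34) and from 7.92 to 8.17 in controls (mean 8.02), and its probe of Doc2g was called at 0.61 (limma adjusted p = 0.00325). Of these 5 lists the oligodendrocyte and olfactory bulb ranges overlapped. On chip 4 the controls had endothelial values of 9.12 to 9.33 and cortical neuron values of 11.94 to 12.22. Their part in the changes of Zfp36l1, Zfp238, Zfp239 and Zfp810 was not tested.

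The other call on chip 3 was Zfp326, which encodes a subunit of a complex linking transcript elongation with splicing. Its probe ILMN_2996021 was at 9.76, 9.53, 9.74 and 9.73 in ethanol-treated mice and at 9.38, 9.37, 9.39 and 9.42 in controls. The groups did not overlap, and the change was 0.30 (limma adjusted p = 0.00574), against -0.09 between the other chips. Its other tested probes changed on chip 3 by 0.23 and 0.09. The calls between chips 1, 2 and 4 beyond those of Zfp36l1, Zfp238, Zfp239 and Zfp810 were Zfp574 (0.21, adjusted p = 0.00587), Zfp60 (0.15, adjusted p = 0.00477) and probe ILMN_2515349 of Zfp64 (-0.17, adjusted p = 0.00479). On chip 3 these 3 changed by 0.00, 0.05 and 0.03.

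Zfp probes were also compared between chips without a difference of treatment. The controls of chip 3 held only even positions and those of chip 4 both odd and even, so the comparison of controls mixes chip with position. Between chips 1 and 2, both of ethanol-treated mice, 0 Zfp probes passed 1% in limma (background 0.00982%), and 17 had an unadjusted p below 0.05. Between the controls of chips 4 and 3, 6 passed 1% (background 4.39%), 3 higher and 3 lower on chip 4 (background 1.89% and 2.49%). Beyond the probes of Zfp36l1, Zfp238 (2 probes) and Zfp239 these were Zfp579 (0.26) and Zfp637 (0.27). The 6 calls between the controls were 4.23% of the tested Zfp probes, near the background. That comparison had 8 against 4 mice and chip 3 had 4 against 4, so their counts cannot be set side by side.

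Chip as a fixed block leaves only chip 3 to carry the ethanol difference. It gave 1 Zfp probe at 1% (background 0.137%), ILMN_2780424 of Zfp36l1 at 0.54, and the 4 probes called over all arrays had adjusted p of 0.0724 to 0.312. Chip as a random block gave 0 (background 0.756%, 21 Zfp probes at an unadjusted p below 0.05), with adjusted p of 0.0253 to 0.0581 for the same 4 probes. Of these 4, ILMN_1243910 of Zfp292 had the lowest adjusted p in both fits.

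Grouped by known roles, the mRNA decay group (Zfp36, Zfp36l1 and Zfp36l2) had 3 tested probes of 5, with changes over all arrays from -0.16 to -0.03 and 0 called (1 at an unadjusted p below 0.05). Since 8.29% of all tested probes were called, 0 calls in role groups of this size say nothing particular about them. Zfp36, the tristetraprolin gene, changed by -0.03 (limma adjusted p = 0.419), and Zfp36l2 was detected on 0 arrays. The neural development group had 7 tested probes of 17, with a median change of 0.01 against -0.003 for all tested probes and 0 called (2 at an unadjusted p below 0.05). In it Zfp335, a microcephaly gene, changed by -0.08 (adjusted p = 0.0282), Zfp365 by -0.04 (adjusted p = 0.588), Zfp219 by -0.01 (adjusted p = 0.79) and Zfp521, which guides neural progenitors, by 0.01 (adjusted p = 0.904). Zfp423, Zfp462, Zfp488, Zfp536, Zfp804a and Zfp191 had no tested probe.

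The silencing group (Zfp57, Zfp42, Zfp809, Zfp281 and Zfp568) had 1 tested probe of 5. This was Zfp281, a GC-box-binding repressor that works with pluripotency factors, at 0.14 (limma adjusted p = 0.0664), and imprinting factor Zfp57 and stem cell marker Zfp42 (Rex1) were detected on 0 and 2 arrays. The RNA, ribosome and ubiquitin group had 4 tested probes of 10 and 0 called, with 0 at an unadjusted p below 0.05. Zfp91, a ubiquitin ligase, changed by 0.10 (adjusted p = 0.205), Zfp207, a mitotic protein that binds BUB3, by 0.06 (adjusted p = 0.371), and the probes of Zfp346, which binds double-stranded RNA, by -0.03 and 0.04.

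The partners of KRAB proteins gave 9 tested probes of 20 and 0 called, with 2 at an unadjusted p below 0.05, numbers too small to be read against the 8.29% and 31.9% of all tested probes. Trim28 changed by 0.02 (limma adjusted p = 0.737) and Setdb1 by 0.05 (adjusted p = 0.470). Over all arrays, where 8.29% of all tested probes were called, other zinc finger families had few tested probes. Of 13 tested Zbtb probes 1 was lower, of 15 Zc3h probes 1 was higher, of 7 Klf probes 1 was lower, and of 7 Zscan and Zkscan probes 0 were called, with 2 at an unadjusted p below 0.05. With median scaling none of these families had a call. In clusters 0 of 39 tested Zfp probes were called, with 11 at an unadjusted p below 0.05, and outside clusters 4 of 99, where all tested probes gave 8.29% called and 31.9% at that p. The median changes in and outside clusters were 0.00 and 0.01.

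Several tested probes existed for 22 genes, and all of a gene's probes had the same sign over all arrays for 14 of them, on chip 3 for 13 and between the other chips for 16. The probes of Zfp292 had changes of 0.26 and 0.23, those of Zfp771 of -0.11 and -0.08, and those of Zfp330 of 0.07 and 0.05. By contrast, the probes of Zfp523 changed by 0.08 and -0.09, those of Zfp64 by 0.04 and -0.10, and those of Zfp692 by -0.04 and 0.10. A change measured by a single probe was therefore not always shared by another probe of the gene.

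The promoters of Zfp292, Zfp131, Zfp148, Zfp36l1 and Zfp238 were read as the 250 bases before a RefSeq start, for GRCm38.p6. Those of the first start of Zfp148 and of Zfp36l1 are printed because they belong to genes that moved in different ways and lie wholly before the annotated gene. Capitals mark matches, on either strand, to the GC box (GGGCGG), the CCAAT box, the TATA box (TATAAA), the core of a cyclic AMP response element (TGACG) and an ETS factor core (CCGGAAG), and a match is a description of letters, not of a bound site.
Zfp148 promoter, first start, chr16:33380525-33380774, plus strand: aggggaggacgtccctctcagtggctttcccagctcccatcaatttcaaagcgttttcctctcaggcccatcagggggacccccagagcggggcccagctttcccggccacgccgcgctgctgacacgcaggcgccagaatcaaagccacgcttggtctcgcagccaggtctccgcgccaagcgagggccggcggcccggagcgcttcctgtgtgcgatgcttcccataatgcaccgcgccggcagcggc
Zfp36l1 promoter, chr12:80113014-80113263, minus strand: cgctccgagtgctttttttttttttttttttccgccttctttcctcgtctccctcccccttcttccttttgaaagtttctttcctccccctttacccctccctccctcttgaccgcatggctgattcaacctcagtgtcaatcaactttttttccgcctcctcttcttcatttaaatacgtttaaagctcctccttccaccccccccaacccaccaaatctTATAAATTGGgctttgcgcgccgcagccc
RefSeq gives a second start for Zfp148, inside the annotated gene, whose window is not printed. The printed Zfp148 window was 67.2% GC with 23 CpG and held none of these letters, whereas that of the second start was 83.6% GC with 40 CpG and held 5 GC boxes and 1 TGACG. By contrast, the Zfp36l1 window was 48.4% GC with 10 CpG and held TATAAA overlapping ATTGG, the CCAAT box on the other strand. Over 197 Zfp genes with an entry, 6.6% of promoters held TATAAA against 12.4% of 17491 protein-coding genes, 20.3% held CCGGAAG against 9.12%, and 28.4% held TGACG against 20.3%. The GC box was about as frequent in both (43.1% and 42.7%), as was CCAAT (39.6% and 36.3%).

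The normalization between arrays decided how many Zfp probes were called. With quantile normalization of log2 signals, 4 probes were called over all arrays, 3 on chip 3 and 9 between the other chips, and with normexp background correction 3, 0 and 9, the last split into 5 higher and 4 lower. At an unadjusted p below 0.05 there were 39 on chip 3 with normexp and 22 over all arrays with median scaling. With median scaling there were 0, 1 and 3, all higher, and the 4 probes called over all arrays had adjusted p of 0.0187 to 0.0948. The share of all tested probes called changed with the normalization too, so these counts are no result about the family alone. Under log2, normexp and median scaling the Zfp share was below that of all tested probes in each comparison. The plot of called percentages by normalization shows both shares. Without normalization between arrays there were 98, 1 and 131, where 51%, 2.44% and 80.4% of all probes were called. There the median change over all arrays was 0.24 for Zfp probes and 0.23 for all tested probes, and between chips 1, 2 and 4 it was 0.36 and 0.35, so the medians of Zfp probes and of all probes moved together. The direction of the family followed the scaling as well. The share of positive Zfp changes over all arrays was 57% in the main setting and 66.9% with median scaling (54.5% of all tested probes), whereas on chip 3 it was 55.6% and 47.2% (37.7% of all).

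**Figure D5:**
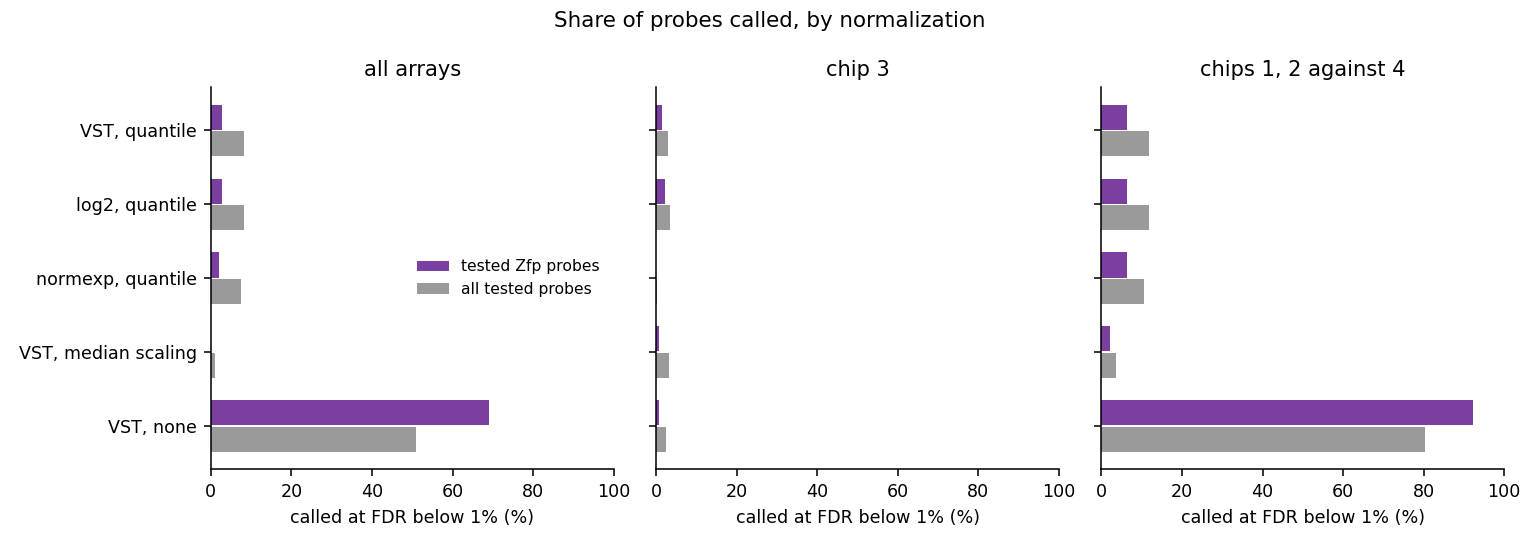
Percentage of tested Zfp probes (purple) and of all tested probes (grey) called at an FDR below 1% under 5 normalizations, for the comparison over all arrays, on chip 3 and between chips 1 and 2 and chip 4. VST is the variance-stabilizing transform. The Zfp bars are shorter than the grey bars except without normalization over all arrays and between chips 1, 2 and 4.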

How the data were processed

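Frontal cortex RNA of 20 ethanol-treated and 12 control mice was measured on Illumina MouseRef-8 v2.0 arrays, 8 per chip. The authors deposited intensities, the mean bead signal of each probe on a linear scale without normalization between arrays, and for every probe a detection p-value computed against the negative controls. As other values they deposited the bead standard error and number of beads. The submitters' processing notes name lumi and limma. The background step is not given in the sources used here.

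Every column matched a mouse (0 unmapped). The variance-stabilizing transform of the Methods was rebuilt in R 4.3.3 (package data.table, version 1.17.8) from the bead standard errors, with 200 signal bins, and followed by quantile normalization. It shrinks changes of dim probes relative to log2. Probes with detection p below 0.01 on at least 24 of 32 arrays were tested with limma 3.58.1 (lmFit, eBayes), without covariates, with Benjamini-Hochberg adjustment over all 10187. Calls used an FDR below 1%, or below 10% with at least a 1.1-fold change. All adjusted p-values are limma's. The script was tested on simulated data. Counts and sequences were handled in Python 3.11.15 (pandas 2.3.3, numpy 2.4.6). The number of arrays limits the precision.

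The members and gene lists were chosen with earlier results of these data known. Probes were named if called at 1%, among the 5 largest increases or decreases, among the 10 brightest, called for the difference between chips, or in a role list, and genes if they had several tested probes. Zfp326, Zfp574, Zfp60, Zfp579 and Zfp637 were named after their values were seen. Alternatives covered the transform, normalization, filter, threshold, blocks, position and arrays left out. Protein sequences were not used here. Gene positions and promoters are from RefSeq, since the build of the probe coordinates in the table is not given (12 of 317 lay inside the GRCm38 gene).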

Additional observations from a re-analysis of the deposited data

Results flagged for a closer look

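The ethanol difference on chip 3 minus that between chips 1, 2 and 4 was tested as an interaction in limma. It passed an FDR of 1% for 5 Zfp probes (3.52%, near the background of 2.88%). It was 0.85 for ILMN_2780424 and 0.51 for ILMN_1247853 of Zfp36l1, -0.55 for ILMN_2445848 of Zfp238, -0.49 for Zfp239 and -0.45 for Zfp810. The abutting probes of Zfp36l1 count as 1 observation. On chip 3 treatment coincides with odd and even position, and on chips 1, 2 and 4 with chip, so the effect of treatment cannot be told apart from either.

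Among the named probes, a single array stood apart in 5 of 140 combinations of probe, group and chip (3.57%), where chance flags about 1 in 20. The gap to the nearest array over the whole range was 0.962 for Zfp91 in control mouse 54 and 0.862 for Zfp653 in ethanol-treated mouse 46, both on chip 3. It was 0.625 for Zfp238 probe ILMN_2459155 in ethanol-treated mouse 9 on chip 1, 0.565 for Zfp36 in ethanol-treated mouse 45 on chip 2, and 0.624 for Zfp330 in control mouse 66 on chip 4.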

How the results depend on the processing

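No paired analysis was possible because the ethanol-treated and control mice share no replicate numbers. The number of Zfp probes called over all arrays was 4 (background 8.29%). It was 0 with median scaling, 98 without normalization and 1 with all probes of the array tested. It was 1 with chip as a fixed block (background 0.137%) and 0 with chip as a random block (background 0.756%). With position it was 2 (background 9.7%), and with chip and position 0 (background 0.0196%). Without control mouse 66 it was 1, and at the looser threshold 8 (background 13.3%). With log2 signals at the looser threshold, a setting chosen after seeing the data, it was 13. On chip 3 it was 2 (background 3.03%), and 0 with normexp, 1 with median scaling and 1 without normalization. There it was 21 at the looser threshold (background 17.1%) and 22 with log2 at that threshold (also added). With each array of chip 3 left out it was 0 to 2 (0 without control mouse 54). Between chips 1, 2 and 4 it was 9 (background 11.8%), and 3 with median scaling, 131 without normalization and 7 without mouse 66. There it was 19 at the looser threshold (background 21.3%) and 28 with log2 at that threshold. The 5 differences between chips (background 2.88%) became 2 with median scaling. They became 3 to 5 with an array of chip 3 left out and 7 without mouse 66 (these added). The 1 probe differing between odd and even positions (background 3.76%) became 0 with median scaling. The share of all tested probes called changed with the setting too, so these counts are no result about the family alone.

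The median Zfp change over all arrays (0.01) was 0.024 with normexp and 0.243 without normalization. On chip 3 (0.013) it was 0.035 with normexp, -0.006 with median scaling, -0.005 without normalization, 0.001 over all probes, and 0.006 to 0.023 with an array left out. Between chips 1, 2 and 4 (0.014) it was 0.048 with median scaling and 0.362 without normalization. The share detected (40.3%) was 47.7% at a detection p below 0.05, 29.3% on all arrays, 64.5% on any array and 45.9% by symbols. The median level against all probes (-0.509) was -0.602 with log2 and -0.869 with normexp.

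Changes over all arrays of named probes turned sign as follows, each cause not tested unless the shift of all probes shows it. Without normalization, where the median of all probes rose by 0.23, the negative changes became 0.091 for Zfp187, 0.227 for Zfp219, 0.134 for Zfp251, 0.145 for Zfp335, 0.206 for Zfp346, 0.198 for Zfp36, 0.146 for Zfp365, 0.119 for Zfp653, 0.129 for Zfp771, and 0.079 and 0.154 for Zfp36l1. With chip as a fixed block they became 0.014 for Zfp219, -0.203 and -0.182 for Zfp238, -0.222 for Zfp239 and for Zfp810, -0.004 for Zfp330, 0.013 for Zfp36, 0.205 and 0.535 for Zfp36l1 and -0.07 for Zfp46. With a random block they were 0.066 for Zfp36l1 and -0.01 for Zfp46, and with position 0.003 for Zfp365, -0.012 for Zfp46 and -0.006 for Zfp521. With chip and position they were 0.043 for Zfp187, 0.051 for Zfp219, -0.032 for Zfp238, -0.155 for Zfp239, -0.033 for Zfp281, -0.079 for Zfp330, 0.055 for Zfp36, 0.249 and 0.502 for Zfp36l1, -0.18 for Zfp46, -0.239 for Zfp810 and -0.038 for Zfp91. Zfp219 was 0.005 with median scaling and Zfp521 was -0.001 without control mouse 66. The changes of Zfp292, Zfp131 and Zfp148 were positive in all of these settings, but with chip and position they were 0.161 and 0.019 for Zfp292, 0.09 for Zfp131 and 0.14 for Zfp148.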
